A study of Bos taurus with 129 samples.

Results

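The subunits of the respiratory chain that are encoded in the nucleus were examined in bovine whole blood. Members were taken by gene symbol: those starting with NDUFA, NDUFB, NDUFC, NDUFS or NDUFV (complex I), SDHA to SDHD (complex II), UQCR (complex III), COX4I, COX5, COX6, COX7 or COX8 (complex IV) and ATP5 (complex V), without assembly factors and with a mean level of at least 1 over all libraries in CPM, the count scaled to a common library size. Of 32395 genes in the count table, 87 matched the symbols and 80 were kept: 36 of complex I, 4 of complex II, 8 of complex III, 13 of complex IV and 19 of complex V. NDUFA4 was counted with complex IV, of which its protein is now known to be part, as were the supercomplex factor COX7A2L and COX7ALP1, which RefSeq lists as a pseudogene.

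The libraries came from blood of 26 crossbred beef steers drawn at day 0 and again at days 13, 28, 45 and 60. Steers received trace minerals from inorganic sulfates (INR), as amino acid complexes (AAC), or as complexes together with an oral drench (COMBO). Per the study's methods, the drench was first given before the cattle were shipped, again at enrolment on day 0 and once more with any treatment for illness, so that COMBO cattle at day 0 had already received it. The disease label separated 12 healthy steers (4 per supplement, 59 libraries) from 14 steers with bovine respiratory disease (BRD; 4 AAC, 3 COMBO and 7 INR, 70 libraries). The labels do not give the day on which BRD was diagnosed or treated, so a BRD library may precede or follow illness. The labels give each steer the same pen on every day, taken here as its pen group. Per the study's methods, steers were rotated between pens every 14 days. Healthy COMBO steers shared pen 5 and COMBO steers with BRD shared pen 6, so pen group and disease label cannot be told apart in COMBO. AAC steers were in pens 2 and 8 and INR steers in pens 3, 4 and 7. Each pen group held a single supplement, so differences between supplements cannot be told apart from differences between pen groups. The day 13 library of healthy AAC animal 48 had been removed by the authors.

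The respiratory chain of the inner mitochondrial membrane passes electrons from NADH (complex I) and succinate (complex II) through complex III to complex IV, where oxygen is reduced, and complex V (ATP synthase) uses the resulting proton gradient to make ATP. Most subunits are nuclear genes, while a small set of catalytic core subunits of complexes I, III, IV and V is encoded by mitochondrial DNA. In blood, lymphocytes, monocytes and platelets carry mitochondria, neutrophils carry few, and red cells lose theirs as they mature from reticulocytes.

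Total counts per library ranged from 31613545 to 61692136 with a median of 44268685. Each library's median correlation with the others was between 0.9295 and 0.9637, and the lowest belonged to the day 60 library of BRD INR animal 40, for which low RNA integrity is stated in the study's methods. The next lowest were 0.9319 for BRD AAC animal 21 at day 0 and 0.9333 for BRD COMBO animal 54 at day 60. Values of members below are CPM scaled by TMM factors, and log2 changes come from edgeR's quasi-likelihood test with a false discovery rate (FDR) threshold of 0.10 over all genes tested.

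The symbols that fell below 1 CPM were mostly tissue isoforms of complex IV. COX4I2, the lung-enriched form of subunit 4, was at 0 in all libraries but 1. COX6A2, the form of heart and skeletal muscle, had a mean of 0.0489 CPM, COX7B2 0.170 CPM and COX6B2, a testis form, 0.803 CPM. NDUFA4L2, a hypoxia-inducible relative of NDUFA4, had 0.00802 CPM. Just outside the threshold were COX8B, another muscle form, at 0.811 CPM and NDUFB6 of complex I at 0.600 CPM, and just inside were COX7ALP1 at 1.32 CPM and ATP5S at 2.36 CPM. Of the muscle forms of complex IV, COX7A1 was kept, at 4.31 CPM. All 80 members passed the filter on low counts in each fit.

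The summed level of the members was 4990 CPM in the median library and ranged from 3775 to 7489 CPM. By complex, the median library held 1573 CPM of complex I, 372 CPM of complex II, 405 CPM of complex III, 713 CPM of complex IV and 1869 CPM of complex V. The 13 subunits encoded by mitochondrial DNA together reached 13141 CPM. These sums do not compare complexes as proteins, since no transcript lengths were used.

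**Figure D1:**
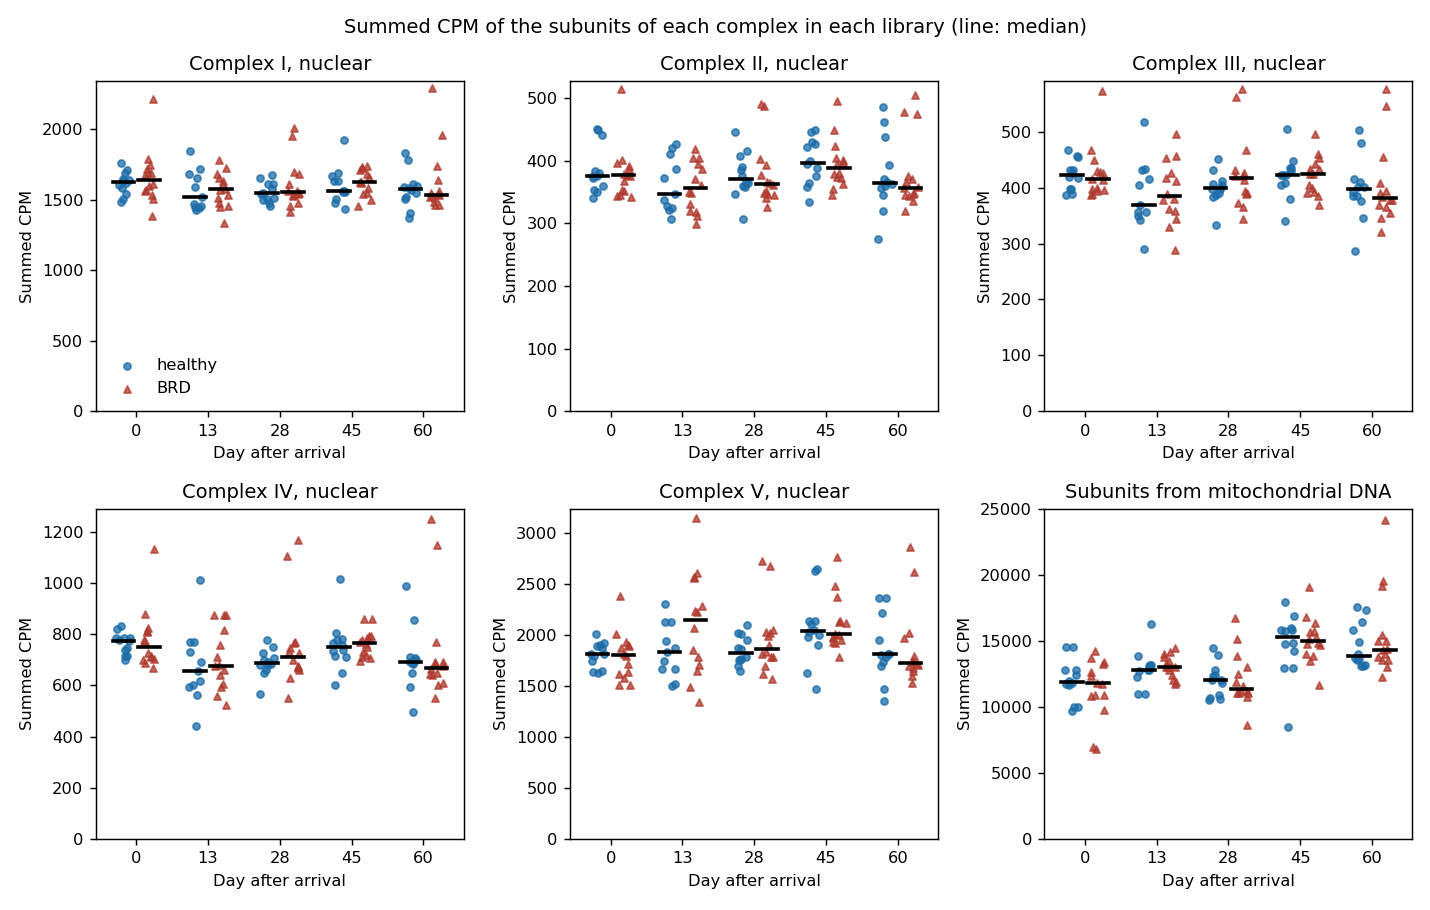
Summed CPM (vertical axis, from 0) of the nuclear subunits of complexes I to V and of the 13 subunits from mitochondrial DNA, in each library by day after arrival (horizontal axis); circles are healthy cattle, triangles BRD cattle and lines medians. Healthy and BRD cattle overlap on every day in every panel, and single high libraries recur in the BRD cattle at days 0, 28 and 60.

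The members rose and fell together from library to library. After the mean of each supplement, label and day was removed, the median correlation between a pair of members over all libraries was 0.605, and 91.2% of pairs were above 0, against a median of 0.016 between members and other genes of at least 1 CPM. Pairs within a complex (median 0.596) were not closer than pairs across complexes (0.608). These libraries share animals, with up to 5 from each, so the correlations are a description.

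With the mean of the other members, 68 members had a correlation above 0.5 and 47 above 0.8. The 3 members below 0, named here after their values were seen, all belong to complex I: NDUFV2, a core subunit that holds an iron-sulfur cluster (-0.66), the accessory subunit NDUFC1 (-0.44) and NDUFS1, the largest iron-sulfur subunit (-0.33). NDUFS1 overlaps another coding gene in RefSeq, as do 13 other members. Near 0 were COX7A1 (0.06) and ATP5IF1 (0.13), the inhibitory factor that blocks ATP hydrolysis by complex V.

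The members' mean, on the log2 scale within groups, correlated at 0.922 with the mean of 76 mitochondrial ribosomal proteins, at 0.919 with 14 core proteasome subunits, at 0.854 with 76 cytosolic ribosomal proteins and at 0.825 with 13 citric acid cycle genes. The correlation was 0.347 with the subunits from mitochondrial DNA and -0.21 with regulators of mitochondrial biogenesis. It was 0.071 with neutrophil markers, 0.266 with T cell markers, 0.243 with B cell markers, -0.17 with platelet markers, 0.058 with erythroid markers, 0.063 with the total count and -0.57 with the TMM factor. The part of scaling in this shared variation was not tested.

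**Figure D2:**
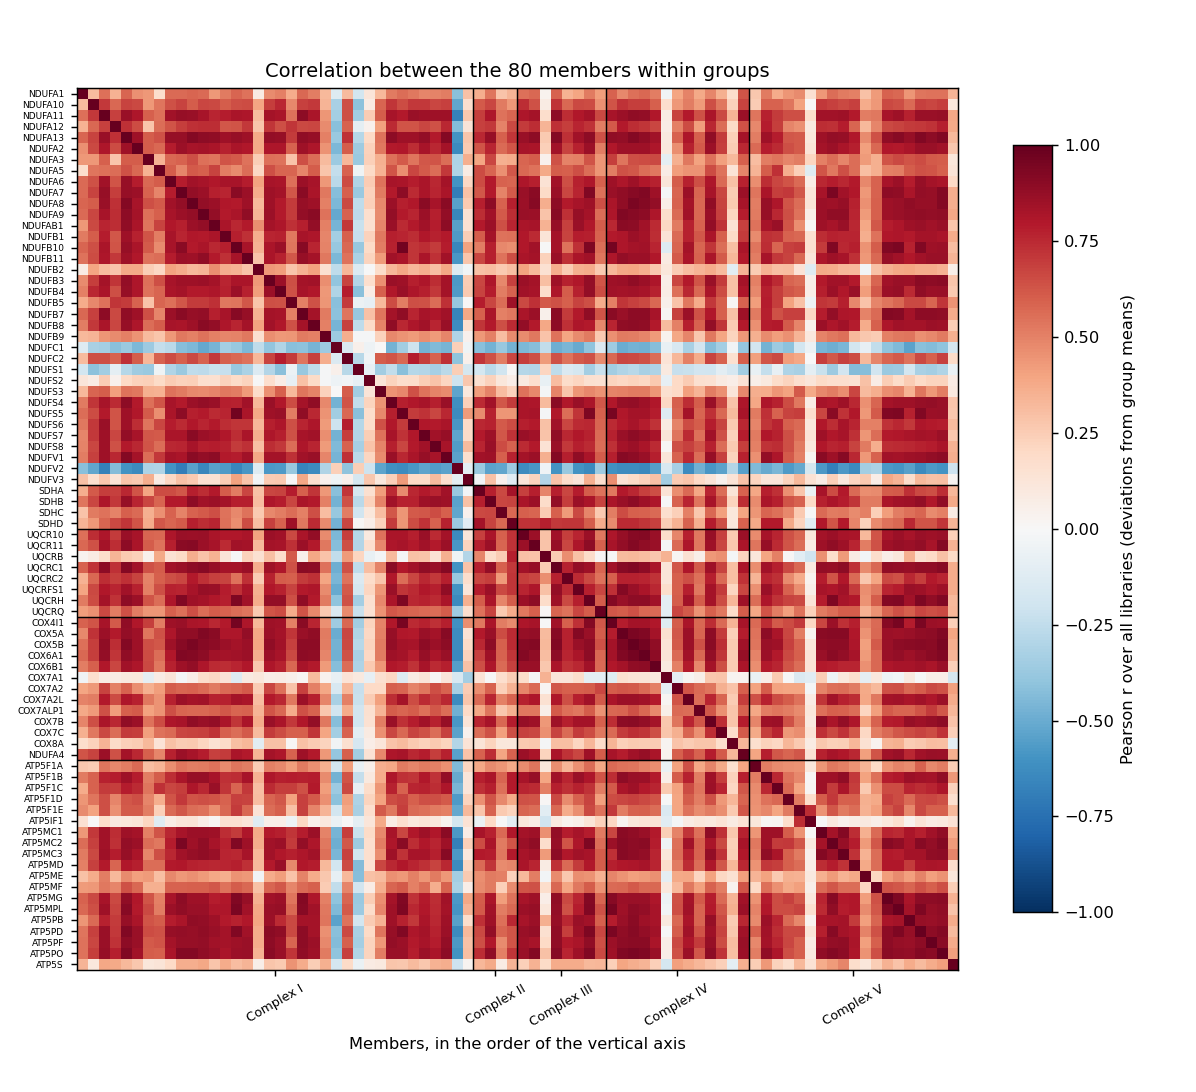
Pearson correlation between the 80 members (both axes, ordered by complex, with lines between complexes) over all libraries after group means were removed; colour runs from -1 (blue) to 1 (red). Most of the field is red across complex borders, the bands of NDUFV2, NDUFC1 and NDUFS1 are blue, and those of COX7A1 and ATP5IF1 are pale.

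Single members differed in how tightly they were held. The SD of log2 CPM within groups had a median of 0.243 over members and of 0.268 over all genes of at least 1 CPM. It was under 0.3 in 65 of 80 members and in 7758 of those 13695 genes. The smallest were 0.120 for NDUFV3 and 0.120 for NDUFC2, and SDHA, the flavoprotein of complex II, had 0.143. The largest was COX8A, the ubiquitous form of subunit 8, with 1.29, whose level ran from 0.0950 to 46 CPM. ATP5ME, a membrane subunit of complex V that overlaps MYL5 in RefSeq, had 0.955 and NDUFB9, which overlaps MTSS1, 0.917. The members of smallest and largest SD were named here after their values were seen.

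To ask how the chain's transcripts moved over the receiving period, each day was compared with day 0 within animals. ATP5IF1 rose at every later day and COX7A1 fell. More members were called lower than higher at days 13, 28 and 60, but at each of these days most members were not called. The 4 comparisons share the day 0 libraries. In whole blood, fewer cells of a type and less RNA per cell cannot be told apart.

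At day 13, 26 of 80 members were called, 3 higher and 23 lower, where 32.23% of all 18937 genes were called, 16.92% higher and 15.31% lower. The members' median change was -0.12, against 0.01 for all genes, and 71 of 80 members were below 0. At day 28, 2 members were higher and 10 lower (background 35.84%, 18.51% higher and 17.33% lower), with a median of -0.05. At day 45, 8 were higher and 4 lower (29.90%, 15.30% higher and 14.60% lower), with a median of -0.01. At day 60, 3 were higher and 18 lower (32.54%, 16.61% higher and 15.94% lower), with a median of -0.08. The share of members called was thus near the background at day 13 and below it at days 28, 45 and 60 (26.2% at day 60). It was the direction that was uneven at days 13, 28 and 60. At day 28 the lower calls, 12.5% of members, were also below their background, and the unevenness lay in fewer higher calls.

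Single animals moved these counts. At day 13, 51 members were called without animal 3 and 43 without animal 27, but 16 without animal 18 or animal 50 and 17 without animal 6. At day 28, 23 were called without animal 40 or animal 54. At day 60, 33 members (3 higher, 30 lower) were called without the day 60 library of animal 40, 34 without that animal and 33 without animal 54. With library size alone as the scaling, day 28 had 9 members higher and 8 lower and day 45 had 5 higher and 11 lower, and with RLE factors day 45 had 8 higher and 8 lower.

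**Figure D3:**
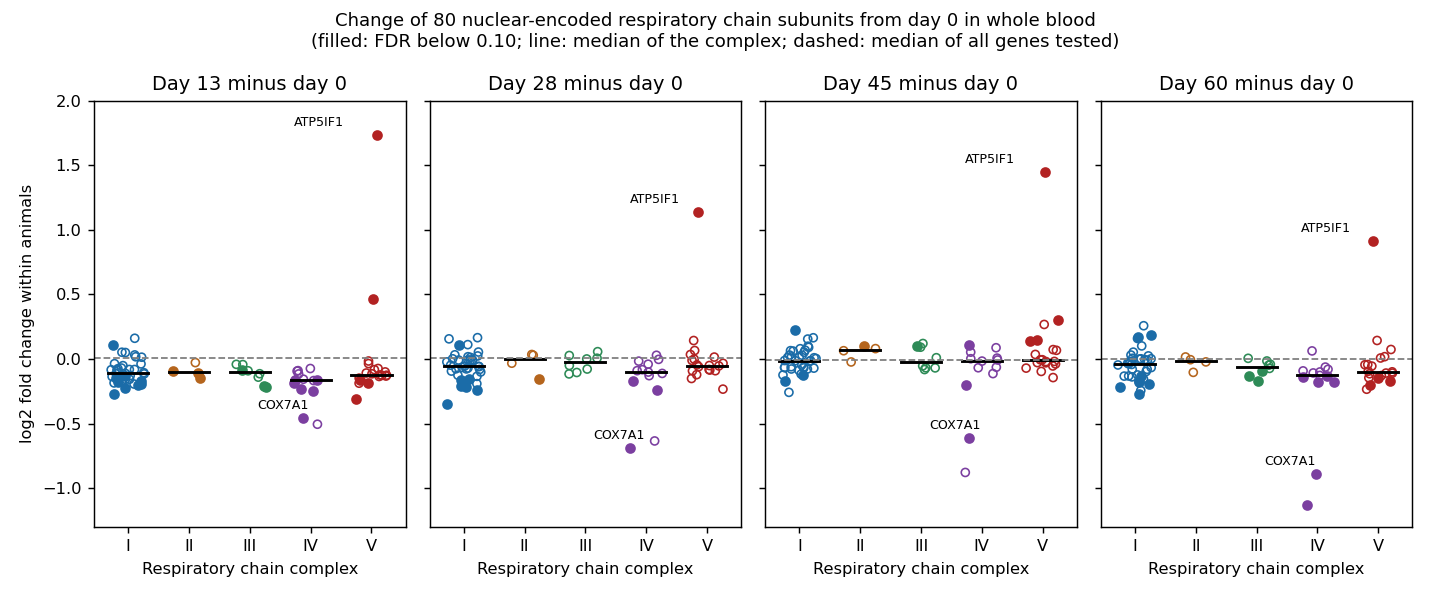
The log2 change from day 0 (vertical axis) of each of the 80 members, by complex (horizontal axis) and day (panels); filled points passed an FDR of 0.10, black lines are complex medians and the dashed line is the median of all genes tested. ATP5IF1 stands between 0.91 and 1.74 at the 4 days and COX7A1 between -0.45 and -0.89, while most other members lie close to 0.

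Complex I, which oxidises NADH, had 1 of 36 subunits higher and 8 lower at day 13, with a median of -0.11. All 8 were accessory subunits, which surround the catalytic core. NDUFA2 had a lowest, median and highest level of 12.26, 17.9 and 26.5 CPM at day 0 and of 8.61, 14.4 and 23.8 CPM at day 13, and was lower than at day 0 in 20 of 25 animals (log2 change -0.27 ± 0.09 SE, FDR 0.013). The levels of the 2 days overlapped widely. NDUFA3, another accessory subunit, was lower at each day (-0.18, -0.21, -0.17 and -0.22), in 19 of 25 animals at day 13 and 19 of 26 at day 60.

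NDUFA6 was lower in 23 of 26 animals at day 28 (-0.15 ± 0.05, FDR 0.016), with medians of 26.9 CPM at day 0 and 23.6 CPM at day 28. The core subunit NDUFS3 went the other way at day 13, in 20 of 25 animals (0.11 ± 0.04, FDR 0.046). The accessory subunit NDUFB5 rose at day 45, from 36.1 to 42 CPM in the median (0.22 ± 0.07, FDR 0.010, higher in 19 of 26 animals), and at day 60 (0.17, FDR 0.050), where NDUFV2 was also higher (0.19 ± 0.08, FDR 0.071). NDUFC1 was higher at day 28 alone (0.11, FDR 0.075), a call lost in 9 of 26 omissions of a single animal. Of the core and carrier subunits, NDUFV1, which binds NADH, had changes of -0.08, 0.01, 0.09 and 0.01 at the 4 days, NDUFS1 0.01, -0.01, -0.02 and -0.02, and NDUFAB1, the mitochondrial acyl carrier protein, -0.11, -0.07, 0.03 and -0.02, and none was called.

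Complex II, succinate dehydrogenase, had 3 of its 4 subunits lower at day 13. SDHB, the iron-sulfur subunit, had 74.50, 86.1 and 139 CPM as its lowest, median and highest level at day 0, 60.5, 81.8 and 102.4 CPM at day 13 and 63.8, 76.7 and 125.2 CPM at day 28. It was lower in 19 of 25 animals at day 13 (-0.15 ± 0.06, FDR 0.040) and in 21 of 26 at day 28 (-0.16, FDR 0.024), and was not called later. The membrane anchors SDHC (-0.09, FDR 0.083) and SDHD (-0.11, FDR 0.052) were lower at day 13, and SDHC was higher at day 45 in 22 of 26 animals (0.10, FDR 0.061). Over 26 omissions of a single animal, the day 13 call was lost in 13 for SDHC and 3 for SDHD. The day 45 call of SDHC was lost in 4. SDHA had changes of -0.03, 0.03, 0.06 and 0.02, none called.

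Complex III had 3 of 8 subunits lower at day 13 and 3 at day 60. UQCRH, the hinge protein of the cytochrome c1 side, had a median of 72.9 CPM (56.96 to 101.9) at day 0 and 60.6 CPM (36.19 to 89.8) at day 13 and was lower in 19 of 25 animals (-0.21 ± 0.07, FDR 0.016). It was lower again at day 60, in 21 of 26 animals (-0.17, FDR 0.043). UQCR10 was lower at day 13 (-0.22 ± 0.08, FDR 0.030), UQCRB at days 13 and 60 (-0.09 at each, FDR 0.051 and 0.029) and UQCRC1, a core protein, at day 60 (-0.13, FDR 0.057). UQCRC2, the other core protein, was higher at day 45 (0.10, FDR 0.082), a call lost in 19 of 26 omissions of a single animal. UQCRFS1, the Rieske protein that carries electrons, had -0.09, 0.00, 0.09 and -0.05, none called.

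Complex IV, cytochrome c oxidase, had the lowest median of the complexes at days 13 (-0.17), 28 (-0.10) and 60 (-0.13). It had 6 of 13 subunits lower at day 13, 3 at day 28, 2 at day 45 and 6 at day 60, and only COX7A2 was higher (0.11 at day 45, FDR 0.067). The COX7A2 call was lost in 10 of 26 omissions of a single animal. COX5B, which binds zinc, had 67.8, 74.4 and 111.1 CPM as its lowest, median and highest level at day 0 and 42.3, 64.9 and 114.8 CPM at day 60, and was lower in 19 of 25 animals at day 13 (-0.19 ± 0.06, FDR 0.022) and in 22 of 26 at day 60 (-0.18, FDR 0.032). COX7A2L, which links complexes III and IV, was lower in 22 of 26 animals at day 60 (-0.14, FDR 0.048) and COX6A1 in 21 (-0.13, FDR 0.098). At day 60 the COX6A1 call was lost in 16 of 26 omissions of a single animal, and that of COX7A2L in 2. COX4I1, the regulatory subunit 4, was lower at day 28 (-0.17, FDR 0.063). COX8A had -1.13 ± 0.47 at day 60 (FDR 0.061), but it was lower in only 15 of 26 animals. COX5A was not called (-0.09, -0.02, 0.09 and -0.06), nor was NDUFA4 (-0.09, -0.04, 0.00 and -0.08).

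COX7A1 had the largest fall among the called members at days 13, 28 and 45. Its level was low throughout: the lowest, median and highest values were 1.95, 4.13 and 24.9 CPM at day 0, 1.82, 3.44 and 17.5 CPM at day 13, 2.30, 3.18 and 10.8 CPM at day 28, 1.59, 3.08 and 11.6 CPM at day 45 and 1.74, 2.92 and 5.41 CPM at day 60. The high values thinned out, from 24.9 CPM at day 0 to no library above 5.41 CPM at day 60, and COX7A1 was lower than at day 0 in 15 of 25, 19 of 26, 20 of 26 and 21 of 26 animals. The log2 changes were -0.45 ± 0.19 (FDR 0.061), -0.69 ± 0.18 (FDR 0.0017), -0.61 ± 0.18 (FDR 0.0074) and -0.89 ± 0.18 (FDR 7.8e-05).

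The genes most like COX7A1 over all libraries were CMTR1 (r = 0.944), USP18 (0.943), ORAI2 (0.943), EPSTI1 (0.937) and IRF7 (0.929). ISG15 (0.917) was among the first 10. These genes were chosen after their values were seen. Group means were not removed here, so differences between days enter these correlations. USP18, EPSTI1, IRF7 and ISG15 are known interferon-stimulated genes. No other member was among these first 10. With group means removed, the correlation of COX7A1 with the mean of the other members was 0.06.

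Complex V differed by part. In the F1 catalytic head, ATP5F1A and ATP5F1B, which form its alpha and beta subunits, were called only at day 45. ATP5F1B had 322, 392 and 492 CPM as its lowest, median and highest level at day 0 and 319.8, 435 and 517 CPM at day 45 (0.14 ± 0.05, FDR 0.019), and ATP5F1A went from a median of 371 to 423 CPM (0.14 ± 0.05, FDR 0.013). Each was higher in 21 of 26 animals, although the ranges of the days overlapped. ATP5F1D, the delta subunit, was lower at day 13 in 20 of 25 animals (-0.31 ± 0.12, FDR 0.038). In the peripheral stalk, ATP5PB was lower at days 13 (-0.16, FDR 0.029) and 60 (-0.15, FDR 0.045), and the membrane subunit ATP5MF at day 60 (-0.20, FDR 0.045). The 3 genes of the c ring, ATP5MC1, ATP5MC2 and ATP5MC3, were not called at any day, with changes between -0.15 and 0.07.

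ATP5F1E, the epsilon subunit of the head, rose at day 13 from 46.5, 61.3 and 87.6 CPM (lowest, median, highest) to 47.9, 72.7 and 208 CPM (0.46 ± 0.10, FDR 0.00037, higher in 18 of 25 animals). It was also higher at day 45 (0.30 ± 0.10, FDR 0.019, 20 of 26 animals), with a median of 73 CPM. The medians were 65.9 CPM at day 28 and 61.6 CPM at day 60, neither called. The genes most like ATP5F1E over all libraries, with group means kept, were FKBP8 (r = 0.848), ATP5IF1 (0.792) and SLC25A39 (0.764), a mitochondrial carrier linked to haem synthesis.

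ATP5IF1 had the largest change of any member at days 13, 28 and 45. Its lowest, median and highest levels were 51.8, 72.2 and 305 CPM at day 0, 69, 254 and 1302 CPM at day 13, 73.1, 158 and 491 CPM at day 28, 68, 219 and 888 CPM at day 45 and 53.2, 165 and 595 CPM at day 60. Although the days overlapped, it was higher than at day 0 in 24 of 25, 22 of 26, 25 of 26 and 23 of 26 animals. The log2 changes were 1.74 ± 0.22 (FDR 9.4e-10), 1.14 ± 0.21 (FDR 1.4e-05), 1.45 ± 0.22 (FDR 8.8e-08) and 0.91 ± 0.21 (FDR 0.00057). Both labels took part: the change at day 13 was 1.49 ± 0.32 in healthy and 1.98 ± 0.30 in BRD cattle, and at day 60 it was 1.09 ± 0.32 and 0.73 ± 0.29. Without ATP5IF1, the summed level of complex V was higher than at day 0 in 7 of 25 animals at day 13, against 16 with it.

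The genes most like ATP5IF1 over all libraries were REEP1 (r = 0.968), HBB (0.954), HBM (0.944), ARG1 (0.942) and ALAS2 (0.936). These genes were chosen after their values were seen. Group means were not removed here, so differences between days enter these correlations. HBB and HBM encode globins and ALAS2 the first enzyme of haem synthesis in red cell precursors. The correlation of ATP5IF1 with the summed erythroid markers was 0.952, and that of ATP5F1E was 0.699, over all libraries, which share animals. The erythroid markers themselves rose from day 0, with 6, 4, 5 and 4 of 7 called higher and median changes of 3.55, 2.66, 3.30 and 1.90, and their summed level ran from 22.2 to 2569 CPM at day 0 and from 134 to 27958 CPM at day 13. None of the 7 was called lower at any day. The part of red cell precursors in the levels of ATP5IF1 and ATP5F1E was not tested.

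**Figure D4:**
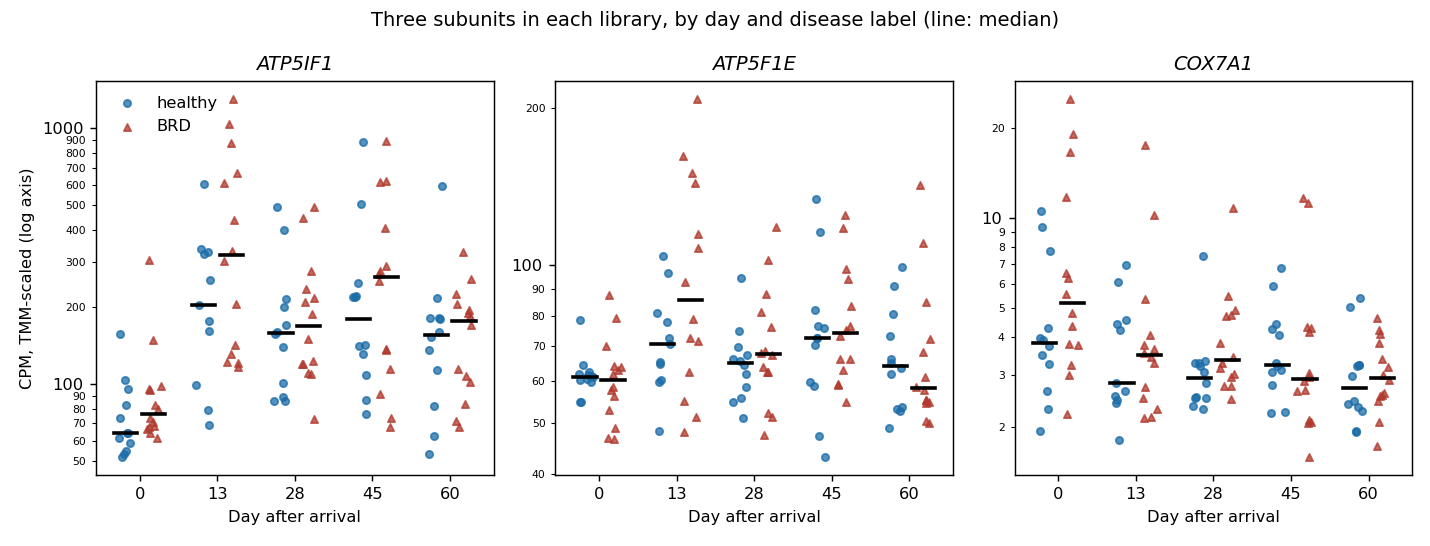
CPM (vertical axis, log scale) of ATP5IF1, ATP5F1E and COX7A1 in each library by day after arrival; circles are healthy cattle, triangles BRD cattle and lines medians. ATP5IF1 is higher at each later day in both labels, ATP5F1E has its highest library, at 208 CPM, at day 13, and the upper values of COX7A1 decrease from 24.9 CPM at day 0 to 5.41 CPM at day 60.

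Other markers moved with the days as well. Of 8 neutrophil markers, 6, 6, 4 and 6 were lower at the 4 days, and of 6 monocyte markers 3, 4, 3 and 5, while 6, 5, 4 and 5 of 7 platelet markers and 1, 3, 5 and 2 of 6 B cell markers were higher. Of 8 T cell markers, 1 was called, lower at day 60. Their part in the members' changes was not tested.

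The 13 subunits from mitochondrial DNA did not follow the nuclear ones. Of these, 7, 1, 9 and 11 were higher and 0 lower at days 13, 28, 45 and 60, with medians of 0.16, 0.04, 0.35 and 0.38, and at day 60 their sum was above that of day 0 in 24 of 26 animals (median level 11829 CPM at day 0 and 14178 CPM at day 60). In the same comparison the complex IV sum of nuclear subunits was lower in 20 of 26 animals. The libraries were made from mRNA, and how far adenylation of mitochondrial transcripts bears on these sums was not tested.

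Among the other genes of the pathway, 43 assembly factors had 6, 3, 2 and 3 higher and 9, 6, 5 and 7 lower. The 14 other electron carriers, which include cytochrome c, had 1, 0, 1 and 2 higher and 1, 1, 0 and 3 lower. The 13 citric acid cycle genes had 0, 1, 4 and 0 higher and 0, 1, 0 and 2 lower. Outside the mitochondrial chain, 33 of 76 cytosolic ribosomal proteins and 22 of 78 mitochondrial ribosomal proteins were lower at day 13 and 0 of either were higher, with medians of -0.16 and -0.09, beside -0.12 for the members.

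The disease label was examined first as a difference in the day change. By edgeR, no member differed between BRD and healthy cattle in its change from day 0 (0 of 80 at each day, where 0% of all genes were called), and DESeq2 called 0 members as well. At an unadjusted p below 0.05 there were 1, 0, 0 and 0 members. The smallest p at day 13 belonged to ATP5F1E, with a change larger by 0.43 ± 0.21 in BRD cattle, and at days 45 and 60 to COX7A1 (-0.71 ± 0.36 and -0.63 ± 0.36), and at day 28 to ATP5MC2 (0.20 ± 0.13), all at an FDR of 0.95 or more. Within healthy cattle alone, 1, 7, 1 and 2 members were called at days 13, 28, 45 and 60 (background 10.95%, 20.98%, 8.55% and 11.64%), and within BRD cattle 5, 3, 6 and 4 (17.43%, 20.05%, 22.51% and 19.62%), so that the members' share was below the background in each. COX7A1 passed the threshold within BRD cattle at every day, and not within healthy cattle, but this difference itself did not pass the test.

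BRD and healthy cattle were then compared at each day, averaged over supplements. No member was called by edgeR at any of the 5 days (background 0.0158%, 0%, 0.00528%, 0% and 0.00528%), DESeq2 called 0, and 1, 3, 2, 0 and 2 members had an unadjusted p below 0.05. The members' medians were 0.04, -0.01, 0.12, 0.00 and 0.05 from day 0 to day 60. Without animal 54 the median was 0.03 at day 28 and -0.04 at day 60, and at days 0, 13 and 45 it also took either sign over the omitted animals. At day 0, COX7A1 had the smallest p (0.70 ± 0.27, FDR 0.49), with medians of 3.83 CPM (1.95 to 10.5) in healthy and 5.20 CPM (2.22 to 24.9) in BRD cattle, whose ranges overlapped. It was the only member called at day 0 in any omission of an animal, without animal 16. At the later days the smallest p belonged to ATP5F1E (0.35 at day 13), NDUFA4 (0.25 at day 28), ATP5ME (-0.80 at day 45) and COX7ALP1 (0.31 at day 60).

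Within single supplements, 2 members were called over the 15 comparisons of label. From day 0 to day 60 the background was 3.08%, 0.29%, 1.52%, 0.354% and 0% in AAC, 5.54%, 0.00528%, 0.0158%, 0% and 0% in COMBO, and 0.00528%, 1.68%, 0.0106%, 0.0158% and 0.00528% in INR. In AAC at day 13, ATP5F1E was 114.8, 150.3, 162 and 208 CPM in the 4 BRD steers and 60.0, 77.8 and 81 CPM in the 3 healthy ones (1.12 ± 0.29, FDR 0.082, background 0.29%). The groups did not overlap. The summed erythroid markers were 5112 to 27958 CPM in those BRD libraries and 134 to 3428 CPM in the healthy ones, and their part was not tested. ATP5IF1 had 609, 668, 1039 and 1302 CPM in the BRD steers and 78.9, 203 and 321 CPM in the healthy ones, again without overlap, and was not called (2.17 ± 0.68, FDR 0.23). The call of ATP5F1E was lost without any of 7 animals (6, 21, 34, 41, 42, 46 and 49) and without COMBO cattle.

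In COMBO at day 0, COX7A1 was 3.76, 19.1 and 24.9 CPM in the 3 BRD steers and 3.74, 3.91, 4.30 and 10.5 CPM in the healthy ones (1.50 ± 0.50, FDR 0.078, background 5.54%). The groups overlapped, since 1 BRD steer was at the healthy level, and the call was lost without animal 3, 18, 42, 54 or 57, and with animal as a random term in limma (1.22, FDR 0.15), while 2 members were called without animal 16. In AAC at day 60 no member was called, but 18 had an unadjusted p below 0.05, all lower in BRD, beside 12.7% of all genes. The median over members was -0.24, and -0.14 without animal 48. In INR at day 13, 15 members had an unadjusted p below 0.05, all higher in BRD, beside 11% of all genes, with a median of 0.24 and none called. Members rise and fall together from library to library, so such counts do not hold independent results. In INR, 1 member was called over the 5 days without animal 10 and 9 without animal 40. The difference between supplements in these label effects was not tested.

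Supplement groups were compared at each day, first within healthy cattle, as in the study. No member was called by edgeR in any of the 15 comparisons, where between 0% and 0.312% of all genes were called (0.186% at day 0 and 0.00547% at day 60 in AAC minus COMBO, and 0.0274% at day 0 and 0.0383% at day 13 in COMBO minus INR), and DESeq2 called 3 members, all in AAC minus INR. The largest common shift was in AAC minus INR at day 13: 34 of 80 members had an unadjusted p below 0.05, all higher in AAC, where 15.4% of all genes had such a p, and the members' median was 0.31 against -0.02 for all genes. Since members rise and fall together across libraries, such counts are again not counts of independent results. NDUFV1 had the smallest p (0.53 ± 0.16, FDR 0.13), with 58.5, 61 and 66.5 CPM in the 3 AAC steers and 38.1 to 50.7 CPM, with a median of 41.1 CPM, in the 4 INR steers. These did not overlap.

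The number of members with such a p depended on 1 INR library: without the day 13 library of animal 50 it was 9, and the median was 0.22. Over the omission of each animal the median stayed between 0.21 and 0.38. In the same comparison the medians were 0.01 at day 0, 0.16 at day 28, -0.06 at day 45 and 0.25 at day 60. At day 60, 28 members had an unadjusted p below 0.05, all higher in AAC, with NDUFV1 again first (0.42, FDR 0.63), and the median ran from 0.15 to 0.31 over the omitted animals. Calls of 4, 12 and 1 members appeared in AAC minus INR without animals 3, 10 and 30. In BRD cattle the same comparison had medians of 0.01 at day 13 and -0.18 at day 60 (-0.23 to -0.04 over the omitted animals). There, 6 members had such a p at day 60, all lower in AAC, beside 14.9% of all genes. The labels were not tested against each other.

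In the other healthy comparisons the members' medians lay between 0.04 and 0.19 for AAC minus COMBO and between -0.12 and 0.19 for COMBO minus INR. Single animals moved some of these: at day 13 the median of COMBO minus INR was 0.19, and 0.018 without animal 3, and that of AAC minus COMBO was 0.08, with 0.0034 without animal 6 and 0.28 without animal 3. At day 45 the medians of both comparisons changed sign with an omitted animal (AAC minus COMBO -0.03 without animal 3, COMBO minus INR 0.03 without animal 30), as did COMBO minus INR at day 60 (-0.02 without animal 30). The members of smallest p for AAC minus COMBO were UQCRB at day 0 (0.33), the accessory subunit NDUFA12 at day 13 (0.49), ATP5S at day 28 (0.57), ATP5IF1 at day 45 (1.18) and ATP5F1D at day 60 (0.55), and none of them was called. For COMBO minus INR they were COX8A at day 0 (2.50), ATP5PF, of the peripheral stalk, at day 13 (0.34), ATP5IF1 at day 28 (-1.37), ATP5S at day 45 (-0.41) and NDUFB7 at day 60 (0.28). The 3 comparisons of a day share libraries in pairs.

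In BRD cattle 6 calls were made, 5 of them in AAC minus COMBO. There the AAC steers came from pens 2 and 8 and the COMBO steers from pen 6, so pen group and supplement cannot be told apart. At day 0, NDUFV3, an accessory subunit of the NADH-binding part, was 64.5, 67.8, 82.1 and 83.2 CPM in AAC and 53.9, 54 and 62.6 CPM in COMBO, without overlap (0.39 ± 0.10, FDR 0.0087, background 12.89%). COX7A1 was 2.22, 3.23, 3.78 and 5.58 CPM in AAC and 3.76, 19.1 and 24.9 CPM in COMBO, with overlap (-2.11 ± 0.54, FDR 0.012). The COMBO steers had been drenched before shipment, and the part of the drench in these day 0 differences was not tested. For its healthy cattle, the paper did not take day 0 differences to stand for supplementation. At day 13, NDUFV3 remained higher in AAC, at 72.3, 73.1, 80.1 and 82 CPM against 57.3, 59.5 and 62.6 CPM (0.34, FDR 0.047, background 5.93%).

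ATP5F1E at day 13 was 114.8 to 208 CPM in AAC and 47.9, 55 and 72.7 CPM in COMBO (1.42 ± 0.31, FDR 0.013). ATP5IF1 was 609 to 1302 CPM in AAC and no more than 332 CPM in the 3 COMBO steers (2.14 ± 0.67, FDR 0.068). Neither overlapped, and the summed erythroid markers, at 5112 to 27958 CPM and 455 to 1958 CPM, did not overlap either. In AAC minus INR at day 13 ATP5F1E was called (0.85 ± 0.24, FDR 0.091, background 0.942%), with 51.3 to 144 CPM in 7 INR steers, a range that overlapped that of AAC. This call was lost with animal as a random term in limma (0.90, FDR just above the threshold of 0.10) and without any of 9 animals (16, 17, 18, 21, 23, 29, 31, 41 and 43), and 2 members were called without animal 27 or animal 39. In AAC minus COMBO, 2 calls were left without animal 18, 3 without animal 21, and 10 were made without animal 40. The members' median in this comparison was -0.29 at day 60, and -0.0038 without animal 54, beside 0.19 in healthy cattle.

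COMBO minus INR had 0 members called by edgeR and 0 by DESeq2 in BRD cattle, where 0.92%, 0%, 0.00541%, 0% and 0.0108% of all genes were called from day 0 to day 60. At day 13, 9 members had an unadjusted p below 0.05, 1 higher and 8 lower in COMBO, beside 7.78% of all genes. The smallest p was that of ATP5ME at day 28 (2.58 ± 0.73, FDR 0.79), with 4.15, 12.5 and 35.4 CPM in COMBO and 0.77 to 9.47 CPM in INR. Without animal 16, 1 member was called in this comparison and without animal 40, 2. Calls in BRD cattle and their absence in healthy cattle were not tested against each other.

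**Figure D5:**
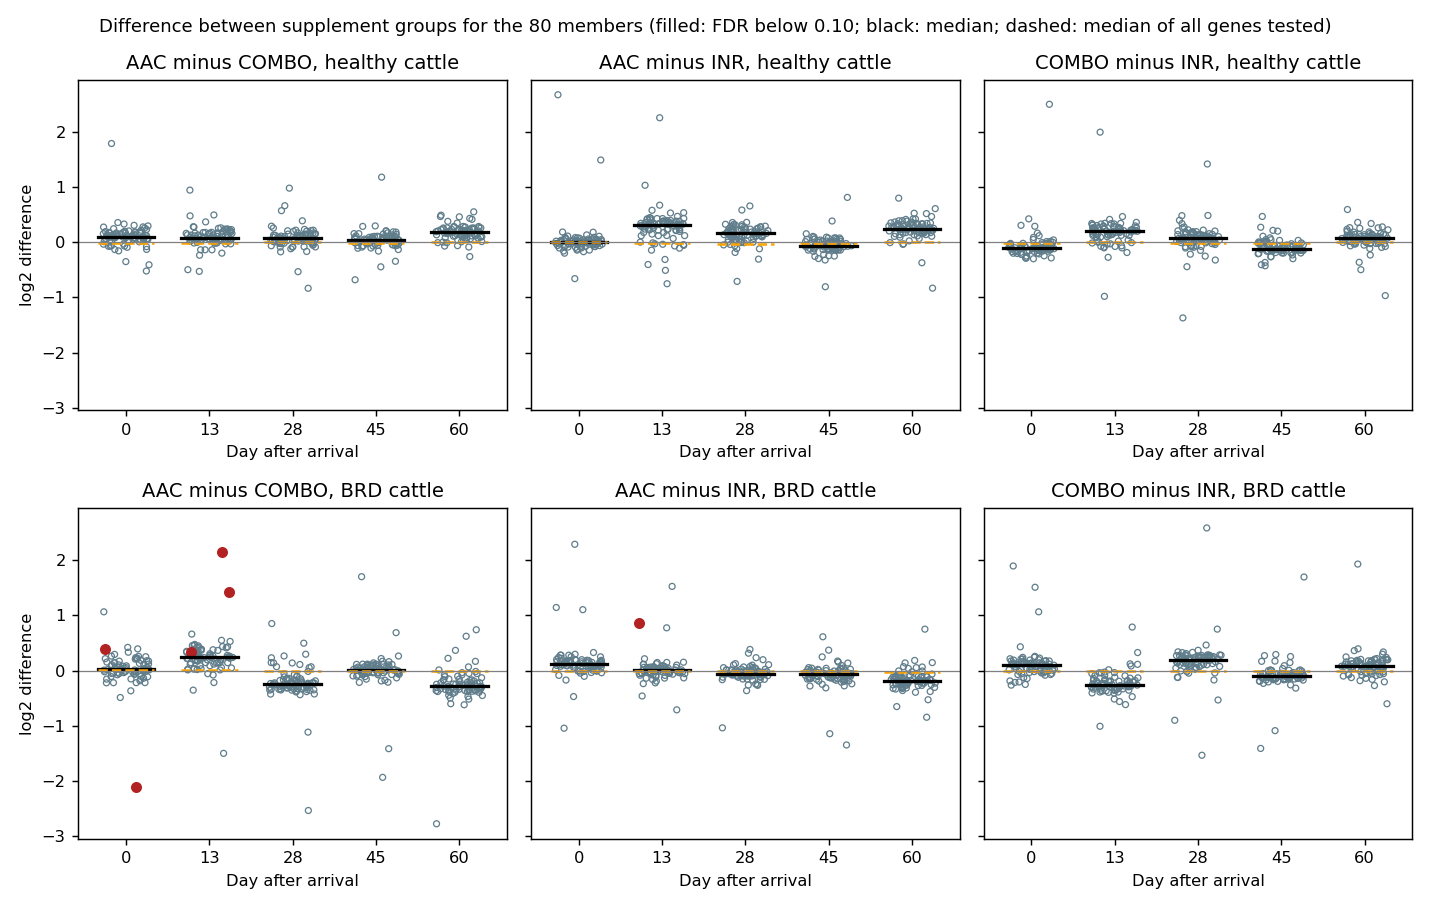
The log2 difference between supplement groups (vertical axis) for each of the 80 members at each day (horizontal axis), in healthy (upper) and BRD (lower) cattle; filled points passed an FDR of 0.10, black lines are member medians and dashed lines medians of all genes tested. The upper panels hold 0 filled points and the lower ones 6, and the member median of AAC minus INR in healthy cattle stands at 0.31 at day 13 and 0.25 at day 60. In BRD cattle that median stands at 0.01 at day 13 and -0.18 at day 60.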

How the data were processed

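Counts per gene for the whole blood libraries were deposited by the authors without normalization. Per the submitters' processing notes, the tools were FastQC 0.11.9, Trimmomatic 0.39, HISAT2 2.1.1, StringTie 2.2.0 and edgeR 3.36.0, and the study's methods give other versions of HISAT2 and edgeR. Per those methods, trimmed reads were mapped to ARS-UCD1.3, and prepDE turned StringTie's output into counts from coverage and transcript length. Values of overlapping genes may therefore be split unevenly. Groups were taken from the labels.

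Tests were run in R 4.3.3 with edgeR 4.0.16 (filterByExpr, TMM factors of 0.9059 to 1.092, common dispersion, glmQLFit and glmQLFTest, Benjamini-Hochberg adjustment over all genes tested, FDR below 0.10). Day changes had animal as a block and a day effect for each label (18937 genes). The same animals were bled on each day, and their libraries deviated together. Over all genes tested, the median correlation was 0.371 for libraries of an animal and -0.010 for other animals on other days. Over the members alone these values were 0.178 and -0.008. BRD and healthy cattle were compared with a mean for each of the 30 combinations of supplement, label and day. Supplements were compared within the 59 healthy (18269 genes) and the 70 BRD libraries (18477 genes). In the comparisons between animals the p-values measure the spread between libraries, and an animal's 5 libraries were treated as separate. The biological coefficient of variation was 28.37% with the block and 38.99% over the 30 means.

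Alternatives were DESeq2 1.42.0, voom weights in limma 3.58.1 with animal as a random term, RLE factors or library size alone, other filters on low counts, an FDR of 0.05, trended in place of common dispersion, no block, single libraries left out, and each animal left out at the dispersion of the full fit. On simulated data for day 13 minus day 0, edgeR recovered 26 of 100 genes changed by a log2 of 0.25 and 100 of 100 changed by 1. For AAC minus INR in healthy cattle at day 13 it recovered 0 and 68. The simulated dispersion was below that of these data (0.080 with the block and 0.136 in healthy cattle). No animal effect was simulated and only genes of high counts were changed, so recovery in these data may be lower.

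The members and the gene lists were chosen with earlier results of these data known. Named members are a list of core and regulatory subunits and tissue isoforms, up to 2 called members of smallest p per complex and direction, and the member of smallest p where none was called; others are marked as chosen after their values were seen. Gene positions and synonyms came from RefSeq (ARS-UCD2.0), in which all 80 members were found, 3 under a newer symbol. No sequence was read. Plots were made in matplotlib 3.10.9 under Python 3.11.15.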

Additional observations from a re-analysis of the deposited data

Results flagged for a closer look

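In 24 groups of 4 to 7 libraries (supplement, label and day), the summed level of each complex and the levels of ATP5IF1, ATP5F1E and COX7A1 were searched for a library that stood far from the rest of its group, by Dixon's ratio. Of 192 group tests, 27 held such a library, from 13 animals. The cutoffs are those that about 5% of groups of normally distributed values would pass. CPM were not log-transformed here, and the measures overlap, as complex V holds ATP5IF1 and ATP5F1E. The count of 27 can therefore not be set against that rate.

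Animal 40 (INR, BRD) was the highest of 7 in 7 cases: at day 28 for complex III (563 CPM, next 432), IV (1107, next 745) and V (2671, next 2018), and at day 60 for complex I (2293, next 1736), IV (1251, next 771), V (2863, next 1968) and ATP5F1E (143, next 61.20). Its day 60 library is the one of low RNA integrity, and its part in these values was not tested. Animal 39 (INR, BRD) was highest at day 45 for complex V (2761 CPM, next 2134) and for ATP5IF1 at days 13 (875, next 439) and 45 (888, next 409).

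Animal 3 (COMBO, healthy) was highest at day 13 for complexes II (411 CPM, next 337) and III (517, next 369.6), and animal 10 (INR, healthy) for complex II at day 0 (449, next 380.2) and complex I at day 13 (1654, next 1454). Animal 21 (AAC, BRD) was highest for complex III at day 0 (574 CPM, next 416) and lowest for complex IV at day 60 (552, next 674). Animal 30 (INR, healthy) was lowest for complex IV at day 60 (497 CPM, next 691) and highest for ATP5IF1 at day 45 (507, next 140.5). Animal 46 (AAC, healthy) was highest at day 45 for complex V (2628 CPM, next 2134) and ATP5IF1 (883, next 247).

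ATP5IF1 also stood apart in animal 9 (AAC, BRD) at day 60 (329 CPM, next 206) and animal 27 (INR, BRD) at day 28 (491, next 277). COX7A1 stood apart in animal 6 (COMBO, healthy) at days 0 (10.5 CPM, next 4.30) and 28 (7.45, next 3.20), animal 7 (INR, healthy) at day 13 (4.21, next 2.65), and in the INR cattle with BRD in animal 17 at day 13 (10.225, next 5.37) and animal 29 at day 45 (11.2, next 4.33). Of 32 pairs of groups examined, 0 had every animal of one group moving up and every animal of the other down.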

How the results depend on the processing

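Over the 59 called results of named members, 1780 recomputed values kept their direction and call, 214 kept the direction and lost the call, and 0 turned. ATP5IF1 at all 4 days, and COX7A1 at days 28, 45 and 60, were called under every alternative run and without each animal. Summed levels by complex moved by less than 1 SD with RLE factors or library size alone.

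The number of members called changed by over 1.5 times as follows. At an FDR of 0.05 there were 15 at day 13, 7 at day 45 and 13 at day 60, and 0 in AAC and COMBO by label and in AAC minus INR with BRD. The stricter filter gave 19 at day 45 and 2 in COMBO by label. DESeq2 gave 2 in AAC and 2 in COMBO by label, 3 in AAC minus INR in healthy cattle and 8 in AAC minus COMBO with BRD. Without the day 60 library of animal 40, day 60 had 33. AAC by label had 0 without COMBO cattle. COMBO by label had 0 with no filter, and AAC minus INR with BRD had 0 with no filter or a trended dispersion. Causes were not tested, beyond the smaller number of calls that a lower threshold brings by construction.

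Without the animal block, 20, 9, 6 and 10 members were called at days 13, 28, 45 and 60, against 26, 12, 12 and 21 with it, and with the block as a random term in limma the label comparisons had 2 in AAC and 0 in COMBO, and AAC minus INR with BRD 0. Other calls on the block changed no count by as much.

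Leaving out each animal, the counts ran from 16 to 51 at day 13, 9 to 23 at day 28, 9 to 17 at day 45 and 14 to 34 at day 60. For label they ran from 0 to 1 at day 0, 0 to 1 in AAC, 0 to 2 in COMBO and 0 to 9 in INR. For supplement they ran from 0 to 12 in AAC minus INR in healthy cattle and, with BRD, from 2 to 10 in AAC minus COMBO, 0 to 2 in AAC minus INR and 0 to 2 in COMBO minus INR. At day 60, the log2 difference of NDUFA11 in COMBO by label ran from -0.011 (without animal 54) to 0.60 (without animal 18) and that of ATP5ME in COMBO minus INR with BRD from -0.047 (without animal 54) to 3.20 (without animal 40), and neither was called without animal 54. At this number of animals most log2 changes near 0.25 would not be detected between supplements.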
